A study of Mus musculus with 6 samples.

Results

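Binding of GLI3R was examined in a stretch of mouse chromosome 19 that carries Dusp5, Smc3 and Rbm20, side by side. GLI3R is the truncated form of the transcription factor GLI3. It represses Hedgehog targets in cells that receive no Hedgehog ligand. The peaks taken were those with a summit within 200 kb of the interval of any of these 3 genes on mm10. By this rule the neighbourhood held 6 of the 3640 peaks in the doxycycline list and 3 of the 4379 peaks in the untreated list. These members were chosen by the summit positions of the deposited peaks, and the neighbourhood was picked with earlier results of these data known, so the counts below are descriptions and carry no test.

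The chromatin came from cardiac progenitors that had been differentiated from A2Lox.cre mouse embryonic stem cells and harvested on day 6. All groups were of the GLI3R-FTA line, in which doxycycline turns on a tagged GLI3R that streptavidin beads can recover. The doxycycline group had 2 pull-downs and 1 input from cells given 500 ng/ml for 24 h from day 5, and the untreated group had 2 pull-downs and 1 input from cells of the same line without the drug. Doxycycline itself and the GLI3R it induces cannot be told apart, because no line without the transgene was among the groups. GLI1 stands in the label on treatment where the titles have GLI3R, and groups follow the titles. Each condition had 1 deposited peak list, so no value has a replicate error. RNA was not part of these data, so neither the cell type markers nor the expression of any gene could be checked.

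The 3 genes lie in the order Dusp5, Smc3 and Rbm20 over 338 kb and do different work. Dusp5 (gene ID 240672, chromosome 19, 53529145 to 53541809) encodes a nuclear phosphatase that removes the activating phosphates from ERK and is itself induced by ERK signalling, which makes it a feedback gene. Smc3 (gene ID 13006, 53600396 to 53645831) encodes a core subunit of cohesin, the ring that holds sister chromatids together and folds chromosomes into loops. Rbm20 (gene ID 73713, 53660989 to 53867083) encodes a splicing factor of heart muscle that sets which exons of titin and other sarcomere transcripts are kept. Mutations of human RBM20 cause dilated cardiomyopathy. A gap of 58.6 kb separates Dusp5 from Smc3, and one of 15.2 kb separates Smc3 from Rbm20.

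Rbm20 had no RefSeq promoter window here, so the distance of peaks from its start was not measured. The promoters of Dusp5 and Smc3 are shown because, among genes with a window, the peak closest to a start lay at Dusp5. No peak lay as close to the start of its neighbour Smc3. Both promoters are RefSeq windows of GRCm38.p6, on the plus strand, that run from 250 bases before the start to 50 after it. They lie at chr19:53528895-53529194 for Dusp5 and at chr19:53600146-53600445 for Smc3. Capitals mark CCACCCA on either strand, the core of the GLI motif, and the CArG box, which serum response factor binds.
Dusp5: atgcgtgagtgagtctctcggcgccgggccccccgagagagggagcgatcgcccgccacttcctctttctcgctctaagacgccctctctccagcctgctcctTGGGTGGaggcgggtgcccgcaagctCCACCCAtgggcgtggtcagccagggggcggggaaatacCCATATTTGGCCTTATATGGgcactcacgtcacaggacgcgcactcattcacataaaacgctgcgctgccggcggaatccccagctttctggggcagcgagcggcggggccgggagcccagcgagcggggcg
Smc3: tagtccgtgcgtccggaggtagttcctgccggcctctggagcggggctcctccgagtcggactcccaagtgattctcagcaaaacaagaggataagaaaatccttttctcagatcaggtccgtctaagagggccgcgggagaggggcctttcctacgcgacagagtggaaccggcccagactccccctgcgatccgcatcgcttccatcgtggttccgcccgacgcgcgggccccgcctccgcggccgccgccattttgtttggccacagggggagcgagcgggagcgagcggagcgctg
The GLI motif GACCACCCA, searched on both strands, had 0 matches in either window, also with 1 mismatch allowed. Over 32851 promoter windows of the same length, 0.253% held it exactly and 6.74% with 1 mismatch. The shorter core CCACCCA, a choice made after seeing the data, had 2 matches in the Dusp5 window and 0 in the Smc3 window. Its matches began 147 bases before the Dusp5 start on the minus strand and 121 bases before it on the plus strand. Of all windows, 9.30% held the core at least once and 0.852% held it 2 or more times. The shares of windows given here were not matched for base composition. The Dusp5 window had 66.7% GC and 28 CpG, against medians of 52.7% and 7 over all windows. The Dusp5 window also held 2 CArG boxes that abut, beginning 82 and 72 bases before the start and overlapping no GLI core, and the Smc3 window held 0. A CArG box, also searched after seeing the data, was present in 1.63% of windows, and 2 or more in 0.0183%. No peak of either list overlapped these windows, so the letters describe the sequence beside the Dusp5 peak and not the peak itself.

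Dusp5 had a doxycycline peak just inside the gene. It covered 53529793 to 53529930, with its summit 0.715 kb past the start, an enrichment of 7.31-fold, 9 fragments over the summit and a −log10 q of 6.61. The 95% Poisson interval of the 9 fragments runs from 4.12 to 17.1. This number of fragments, the pileup, was worked back from the authors' fold and p, and such intervals, given in parentheses below, cover counting error only. Fold is the authors' enrichment over the local expectation at the summit. The nearest untreated summit lay 57.0 kb away. Among 17274 protein-coding genes with a RefSeq start, 1.37% had a doxycycline summit at most 1 kb from a start, and for untreated summits the share was 0.249%. Inside the gene interval, 6.24% of all protein-coding genes held a doxycycline summit and 6.03% held an untreated summit. A second doxycycline peak (53547402 to 53547604) lay 5.73 kb beyond the end of Dusp5, at 6.58-fold and 8 fragments (3.45 to 15.8).

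The interval between Dusp5 and Smc3 held the weakest doxycycline peak of the neighbourhood and the weakest untreated peak. The doxycycline peak (53576311 to 53576481) lay 24.0 kb before the Smc3 start, at 5.12-fold and 6 fragments (2.20 to 13.1). The untreated peak (53586762 to 53586943) lay 13.5 kb before the Smc3 start, at 3.93-fold and 4 fragments (1.09 to 10.2), the smallest pileup that list holds. These were the closest summits of the 2 lists in the neighbourhood, 10.5 kb apart, and their peaks did not overlap.

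Smc3 itself held 0 doxycycline peaks and 1 untreated peak. The untreated peak (53631735 to 53631968) lay 31.4 kb past the start, at 4.72-fold and 5 fragments (1.62 to 11.7). With doxycycline the nearest peak (53654052 to 53654298) lay in the short gap that follows, 8.32 kb beyond the end of Smc3 and 6.84 kb before the nearer end of Rbm20. It reached 7.97-fold and 10 fragments (4.80 to 18.4). Its position lies between the genes and assigns it to neither.

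Rbm20 held 2 doxycycline peaks and 1 untreated peak. The strongest doxycycline peak of the neighbourhood (53697877 to 53698136) lay 37.0 kb inside Rbm20 from the end that faces Smc3, at 8.04-fold, a −log10 q of 7.95 and 10 fragments (4.80 to 18.4). The other (53674727 to 53674866) lay 13.8 kb inside from the same end, at 6.58-fold and 8 fragments (3.45 to 15.8), and its summit also fell within the long noncoding RNA gene Gm46653. The untreated peak (53816885 to 53817021) lay far from both, 156 kb inside from that end, at 7.07-fold, a −log10 q of 6.07 and 8 fragments (3.45 to 15.8). Rbm20 is a long gene of 206 kb. Among the 955 protein-coding genes at least as long, 40.5% held a doxycycline summit and 44% an untreated one, and 12.4% held 2 or more doxycycline summits.

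**Figure D1:**
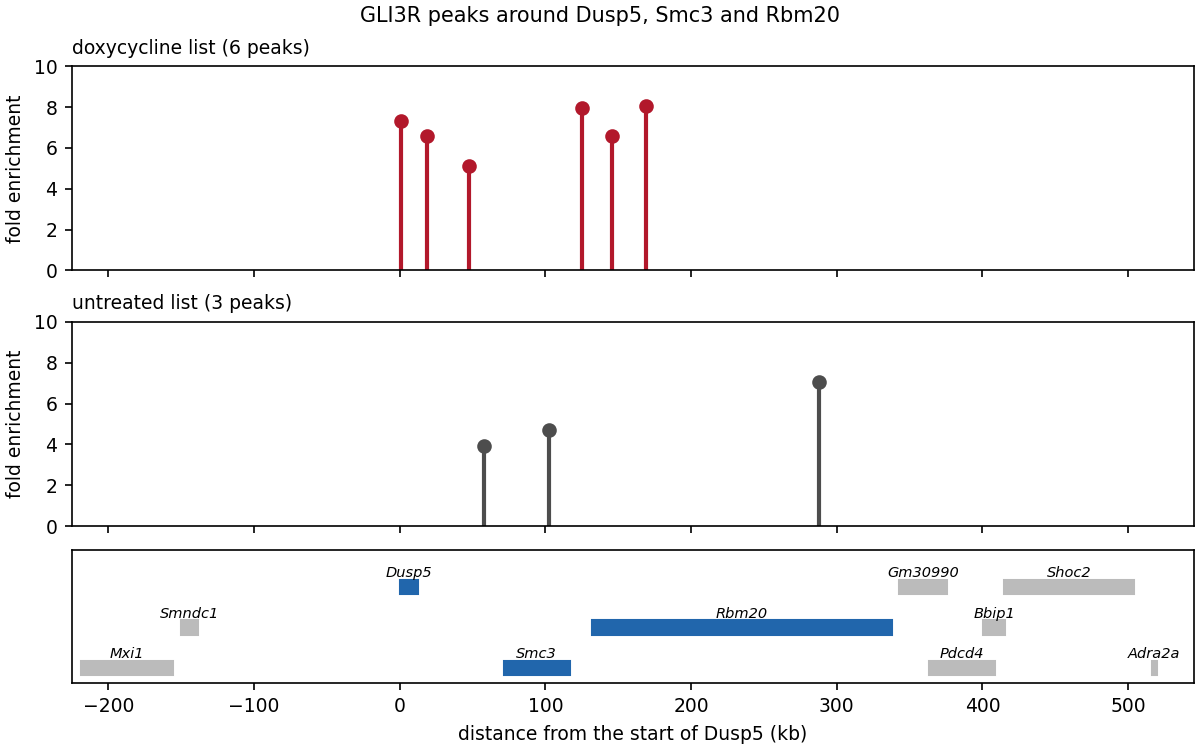
Fold enrichment of each peak (vertical axis, no unit) against the distance of its summit from the start of Dusp5 (horizontal axis, kb), for the doxycycline list above and the untreated list below, over the protein-coding genes of the neighbourhood (blue for Dusp5, Smc3 and Rbm20, grey for the others). The 6 doxycycline peaks run from Dusp5 into the first part of Rbm20, and the strongest of the 3 untreated peaks lies farther into Rbm20.

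The doxycycline peaks of the neighbourhood had 6 to 10 fragments each. Their folds ran from 5.12 to 8.04 with a median of 6.94, against a median of 5.50 over the whole doxycycline list. Of the 6, 5 had 8 fragments or more, a cut that was not set in advance, as did 35.2% of that list. By −log10 q they ranked from 428 to 1863 of 3640. The Poisson intervals of all 6 pileups overlap, so the order of the peaks by strength is not resolved at this depth. The 3 untreated folds ran from 3.93 to 7.07 with a median of 4.72, equal to the median of the untreated list. The peak inside Rbm20 ranked 237 of 4379 by −log10 q, and 8.45% of untreated peaks had a fold as high or higher.

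**Figure D2:**
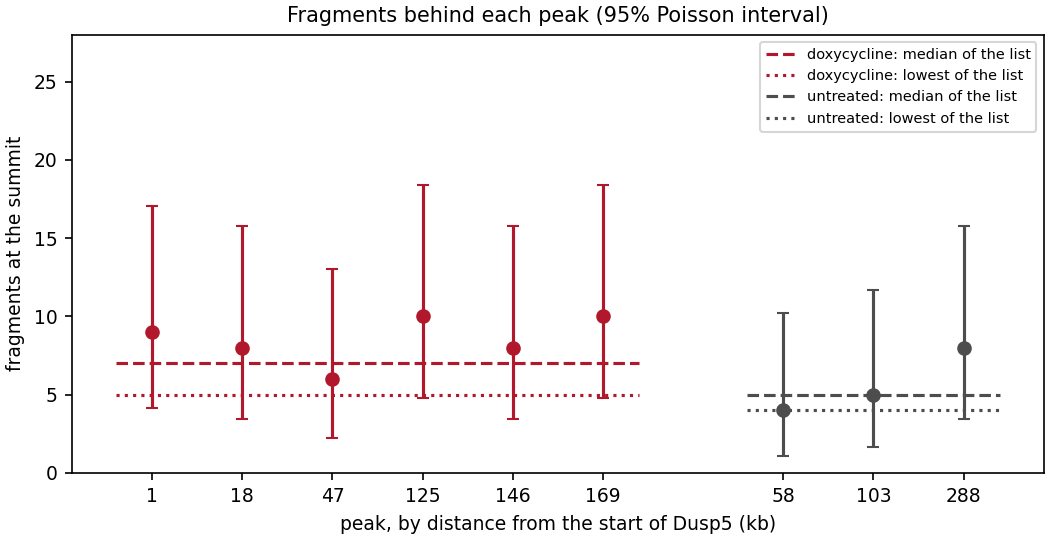
Fragments at the summit of each peak (vertical axis) with their 95% Poisson intervals, named by the distance from the start of Dusp5 in kb (horizontal axis). Doxycycline peaks have 6 to 10 fragments and untreated peaks 4 to 8, with dashed lines at the medians of 7 and 5 fragments and dotted lines at the lowest pileups of 5 and 4 over the whole lists.

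None of the 6 doxycycline peaks overlapped an untreated peak by 1 bp or more, and none had an untreated summit within 500 bp. A count of 0 of 6 allows a share of up to 50% by the rule of 3, which divides 3 by the number of peaks. That limit is not exact and is rough for so few peaks. Over the whole doxycycline list 2.01% of peaks overlapped an untreated one. The background was 0.368 fragments for doxycycline and 0.272 for untreated cells. Scaled by that ratio, the doxycycline pileups of 6 to 10 fragments correspond to 4.43 to 7.39 fragments in the untreated list, whose lowest listed pileup is 4. In the other direction, the untreated pileups of 4 to 8 fragments correspond to 5.41 to 10.8 in the doxycycline list, whose lowest listed pileup is 5. The lower Poisson limits, scaled alike, were at most 3.54 fragments for the doxycycline peaks and 4.67 for the untreated peaks, below those lowest pileups in each case. Whether a site of equal enrichment would have been listed in the other condition is therefore not resolved at this depth. What the pull-downs held at a site where no peak was listed was not analysed here.

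Counted by gene, Dusp5, Smc3 and Rbm20 each had 6 doxycycline summits within 200 kb, the same 6 peaks. Untreated summits within 200 kb numbered 2 at Dusp5, 3 at Smc3 and 3 at Rbm20. Of 21631 protein-coding genes, 0.361% had as many doxycycline summits within 200 kb, 15.8% had 2 or more untreated summits and 3.83% had 3 or more. At least 1 doxycycline summit lay within 200 kb of 49.4% of genes, and at least 1 untreated summit of 48.1%. The difference of doxycycline minus untreated summits was 4 at Dusp5 and 3 at Smc3 and at Rbm20. A difference of 4 or more was found at 1.47% of genes and one of 3 or more at 4.04%, while 0.453% and 1.84% had as large a difference the other way. Since the neighbourhood was chosen for its doxycycline peaks, these shares place it among all genes and support nothing further.

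**Figure D3:**
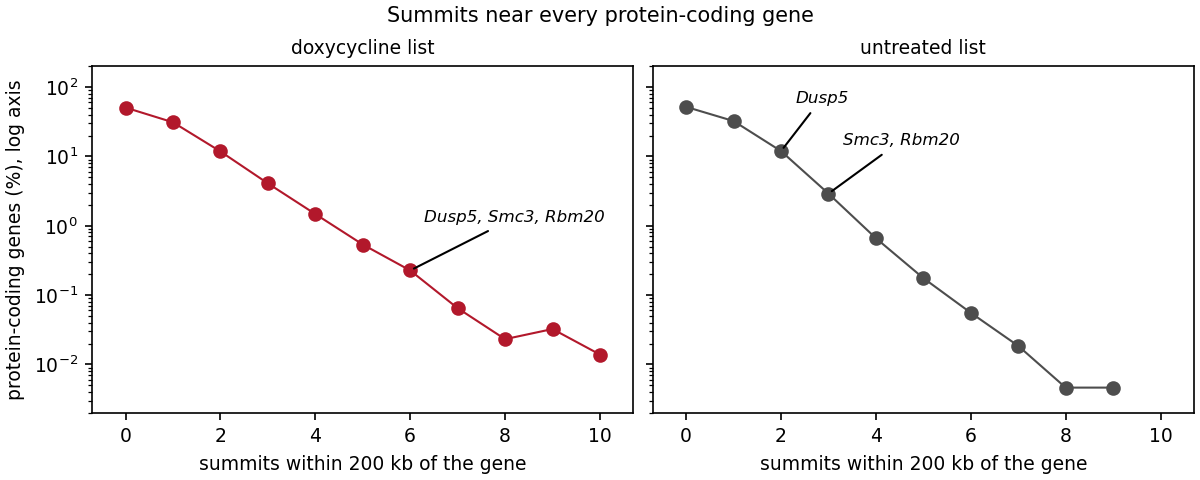
Share of all protein-coding genes (vertical axis, percent, log axis) by the number of summits within 200 kb of the gene (horizontal axis), for the doxycycline list on the left and the untreated list on the right. The 3 genes stand at 6 doxycycline summits and at 2 or 3 untreated summits.

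At shorter distances the genes differed. Within 10 kb, Dusp5 had 2 doxycycline summits and 0 untreated ones. Smc3 had 1 doxycycline and 1 untreated summit within 10 kb, and Rbm20 had 3 doxycycline and 1 untreated. Over all genes, 9.66% had at least 1 doxycycline summit at that distance, 1.35% had 2 or more and 0.3% had 3 or more. Among the 955 genes at least as long as Rbm20, 3.56% had 3 or more. For untreated summits, 8.7% of all genes had at least 1 within 10 kb. Within 50 kb each of the 3 genes had 3 doxycycline summits, a count reached by 0.809% of genes. Untreated summits within 50 kb numbered 1 at Dusp5 and 2 at each of Smc3 and Rbm20, and 2.77% of genes had 2 or more. The peaks are partly shared between these counts, because 1 peak can lie within reach of several genes.

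The other protein-coding genes of the neighbourhood lay outside the group of doxycycline peaks. On the Dusp5 side, Smndc1, which encodes a splicing factor related to SMN, was 115 kb from its nearest doxycycline summit. Mxi1, which encodes a MAX partner that opposes MYC, was 45.4 kb from a doxycycline summit of 5.85-fold that lies outside the 200 kb limit. On the Rbm20 side, Pdcd4, an inhibitor of translation that binds eIF4A, was 194 kb from the nearest doxycycline summit and 75.3 kb from the untreated peak inside Rbm20. Gm30990, which overlaps Pdcd4, was 174 kb from the nearest doxycycline summit. Bbip1, a subunit of the BBSome that carries cargo in primary cilia, was 232 kb away and Shoc2, a scaffold that promotes RAF activation upstream of ERK, was 246 kb away. Adra2a, the alpha-2A adrenergic receptor gene, was the farthest of them at 347 kb. Of these 7 genes, only Mxi1 had a doxycycline summit within 50 kb, and none had an untreated one. Over all protein-coding genes the shares were 20.3% and 19.1%, so counts this low in 7 genes do not set them apart.

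No further doxycycline summit lay within 200 kb of the group on chromosome 19. The 6 doxycycline summits spanned 168 kb, with neighbours 17.7 to 77.8 kb apart. The next doxycycline summit lay 265 kb from the group on the Dusp5 side (5.85-fold, 7 fragments) and 1914 kb from it on the Rbm20 side (5.12-fold, 6 fragments). The untreated peaks were followed by the next untreated summits at 483 kb on the Dusp5 side and 1139 kb on the Rbm20 side, both at 3.93-fold and 4 fragments. In the 2347 kb between the flanking doxycycline summits the untreated list had 4 summits, the 3 of the neighbourhood and the one at 1139 kb. Over the whole chromosome there were 82 doxycycline and 83 untreated peaks.

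**Figure D4:**
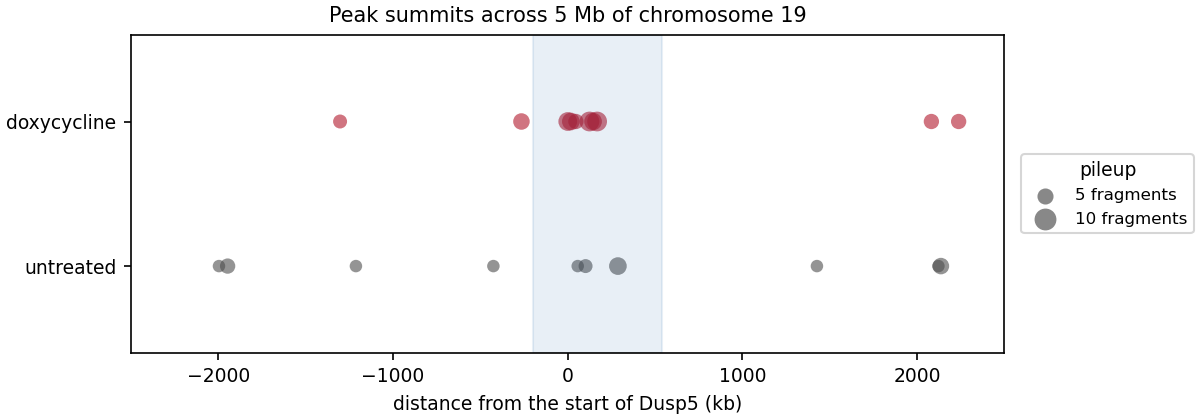
Summits of the doxycycline list (upper row) and the untreated list (lower row) within 2500 kb of the start of Dusp5, with the area of each circle in proportion to its pileup in fragments and the neighbourhood shaded. Each list has 10 summits in this view, and 6 of the doxycycline summits overlie each other beside Dusp5, Smc3 and Rbm20.

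The genes elsewhere with the most similar counts were found by summing the differences from Dusp5 in doxycycline and untreated summits within 200 kb, over the 2 lists, with 1 gene kept per 1000 kb. Foxc2, a forkhead transcription factor gene, matched with 6 doxycycline and 2 untreated summits, as did Cfd, which encodes complement factor D. The highest doxycycline fold within 200 kb was 12.6 at Foxc2 and 14.04 at Cfd, against 8.04 at Dusp5. Synm, the gene of the intermediate filament protein synemin, had 6 doxycycline and 1 untreated summit, and its highest doxycycline fold was 9.50. Man1c1 and Ier5l each had 5 doxycycline and 2 untreated summits, and their highest doxycycline folds were 7.43 and 7.31. At Cfd and at Man1c1 1 of the doxycycline peaks overlapped an untreated one, against 0 at Dusp5.

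The relatives and partners of each gene were then examined, within 50 kb. This distance reached 20.3% of all protein-coding genes for doxycycline summits and 19.1% for untreated ones. At 100 kb, used as an alternative, the shares were 31.7% and 30.6%, and within 50 kb of peaks whose −log10 q was 5 or more they were 8.52% and 2%. Among 10 MAP kinase phosphatase genes, doxycycline summits lay near 4 and untreated summits near 2. Dusp1, an immediate early phosphatase of JNK, p38 and ERK, had the strongest of these peaks (chromosome 17, 26514780 to 26515048), 6.42 kb away at 11.7-fold and 15 fragments, and 0 untreated summits. Dusp5 came next, followed by Dusp7 (5.12-fold, 29.7 kb away) and Dusp8 (4.39-fold, 49.4 kb away). Dusp6, the cytoplasmic ERK phosphatase that follows FGF signalling, had 0 summits in both lists. The untreated list had 1 summit at Dusp2 (3.91-fold, 1.93 kb away), beside that at Dusp5.

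Of 18 genes of cohesin and the factors that load, release or modify it, doxycycline summits lay near 4 and untreated summits near 6. The doxycycline share was 22.2%, near that of all genes, and the untreated share was 33.3%, above it. These shares were not matched for gene length. Rad21, the subunit that closes the cohesin ring, had the strongest doxycycline peak, 21.7 kb away at 13.8-fold and 18 fragments, and 0 untreated summits. Smc3 followed with the peak beyond its end. Pds5b, a cohesin regulator, had its strongest doxycycline peak 49.2 kb away at 6.58-fold, and Stag2, a cohesin subunit, had 1 inside the gene at 4.39-fold. Of these 4, only Smc3 also had an untreated summit within 50 kb. Over all protein-coding genes 19.1% had one, so most genes lack one in any case.

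Of 22 genes in the list of Rbm20, its splicing targets in heart and related RNA-binding proteins, doxycycline summits lay near 7 and untreated summits near 8. These shares were 31.8% and 36.4%, against 20.3% and 19.1% of all protein-coding genes. The comparison was not matched for gene length, and longer genes held summits more often, as given above for genes at least as long as Rbm20. Ryr2, the calcium release channel, had a peak in both lists, 27.1 kb away at 28.2-fold with doxycycline and 26.3 kb away at 27.1-fold without. The 2 peaks covered nearly the same stretch of chromosome 13 (12131303 to 12134291 and 12131282 to 12134244), with 38 fragments in each list. That stretch is far wider than the median peak of 160 bp with doxycycline and 153 bp without, and it was listed without induction. Pdlim3, a Z-disc protein gene, had a doxycycline peak inside the gene at 9.50-fold and 12 fragments, and Camk2g, a calmodulin-dependent kinase gene, had one inside at 7.94-fold. Neither Pdlim3 nor Camk2g had an untreated summit within 50 kb, which 19.1% of all protein-coding genes had. Ttn, which encodes titin and is the best known Rbm20 target, had 0 doxycycline summits and 1 untreated summit, 37.9 kb away at 3.93-fold. Camk2d and Ldb3, further Rbm20 targets, had 0 summits in both lists. Each list includes the gene of the neighbourhood it was built around, so 1 gene in each count was already known.

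**Figure D5:**
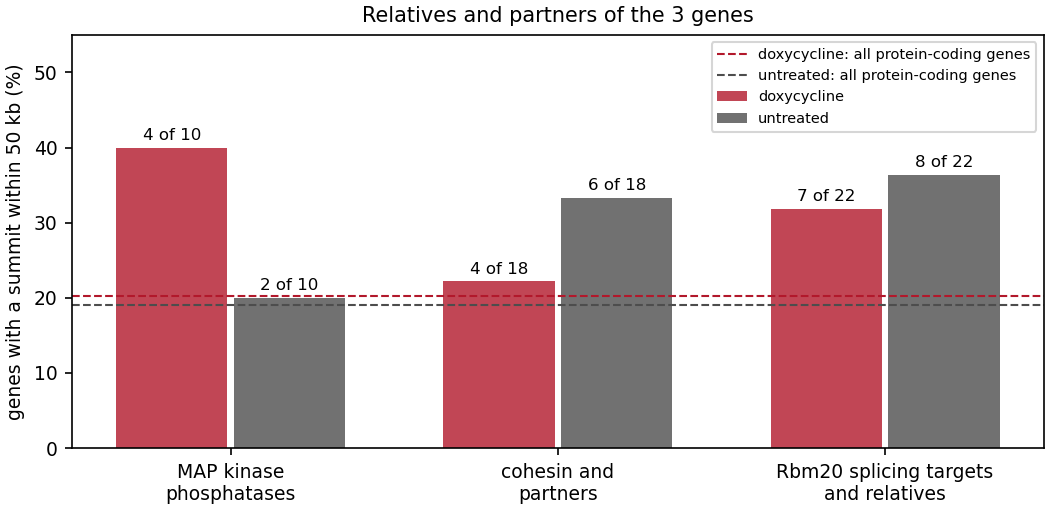
Share of each gene list with a summit within 50 kb (vertical axis, percent), for doxycycline (red, left bar of each pair) and untreated (grey, right bar), with the number of genes above each bar and dashed lines for all protein-coding genes. MAP kinase phosphatases stand at 4 of 10 with doxycycline and 2 of 10 without. The other lists have fewer genes with doxycycline than without at the authors' threshold. That order turns with a −log10 q of 5 or more, where all genes stand at 8.52% with doxycycline and 2% without. The Rbm20 list does not show that order within 100 kb (10 genes each).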

How the data were processed

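The samples were 6 ChIP-seq libraries, grouped by their titles. Per the submitters' processing notes, the tools were MACS2 2.1.1, Bowtie2 2.3.2 and SAMtools 1.5, on mm10. Tool settings and any pooling of pull-downs: not given in the sources used here. There was 1 deposited peak list per condition. The authors deposited a fold (a ratio at the summit), a −log10 p and a −log10 q for each peak, which were used as given, and a score, which was not used. The summit offset, in bases from the peak start, is also a deposited value. Fragment totals were not analysed here.

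Rows that shared an interval were merged with the best summit kept, so that 3725 rows gave 3640 peaks with doxycycline and 4428 rows gave 4379 without. The pileup and local expectation were solved by taking p as an upper Poisson tail and fold as (pileup + 1) / (expectation + 1). A whole number met the deposited −log10 p to 0.01 for 99.8% of peaks in each list and for all 9 peaks of the neighbourhood. Background is the most frequent expectation. Genes were 21631 protein-coding RefSeq genes of GRCm38.p6, the assembly of mm10, on the 20 chromosomes that both lists cover. Distances run from the summit to the gene interval (0 inside), and coordinates count from 1. No genome sequence was used, so peaks have no printed sequence, and exons and introns were not analysed here. Strand was known for genes with a RefSeq promoter window, which Dusp5 and Smc3 have and Rbm20 lacks. Poisson intervals are exact at 95%.

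Members, gene lists and tests were chosen with earlier results of these data known. Named genes are the members, their protein-coding neighbours within 200 kb, up to 4 genes per list by highest doxycycline fold, and the 5 genes with the most similar counts. Dusp6, Dusp2, Ttn, Camk2d and Ldb3 fall outside that rule and were named after their values were seen. The gene nearest to a further dense stretch is not reported here. From simulated fold and p made with the same formulas, 100% of 500 pileups were recovered, which checks the code and not the formulas. For simulated summits, counts matched a direct count for 100% of 705 genes. The work used scipy 1.17.1, numpy 2.4.6, matplotlib 3.10.9 and pandas 2.3.3 under Python 3.11.15.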

Additional observations from a re-analysis of the deposited data

How the results depend on the processing

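The neighbourhood kept 6 doxycycline and 3 untreated peaks within 50 kb and 100 kb, with all rows and with any base of a peak in the window, and had 7 and 4 within 500 kb. With −log10 q of at least 5, and also among the top 1000 peaks of each list, 5 doxycycline peaks and 1 untreated peak were left. With at least 5 fragments, a choice made after seeing the data, 6 and 2 were left. The MAP kinase phosphatase count was 5 with doxycycline and 4 without within 100 kb, and 2 and 0 with −log10 q of at least 5. Within 100 kb the cohesin list had 6 genes with doxycycline and 8 without, and the Rbm20 list 10 and 10. With −log10 q of at least 5 the cohesin list had 3 genes with doxycycline and 0 without, and the Rbm20 list 5 and 2. Fewer peaks pass by construction. Both lists had more genes near untreated peaks within 50 kb at the authors' threshold, and fewer at the stricter one. Over all protein-coding genes the stricter threshold took the doxycycline share from 20.3% to 8.52% and the untreated share from 19.1% to 2%. The untreated list thus lost more over all genes, and the turn is not read as a trait of these lists. Within 100 kb the cohesin list alone kept more genes near untreated peaks. The core CCACCCA in place of GACCACCCA gave 2 matches at Dusp5 and 0 at Smc3. Leaving out a replicate was not possible with 1 list per condition. No paired analysis was possible because the replicates have no values of their own in the lists. Pileups of 4 to 10 fragments limit every statement about a single peak.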

Other observations

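Stretches with at least 6 summits of the same list in 168 kb or less, the span of the group beside Dusp5, were counted over the genome after the values had been seen. There were 8 such stretches of doxycycline summits and 1 of untreated summits. The 1 untreated stretch and 1 of the 8 lie at the start of the chromosome 9 sequence, where 24 of 25 doxycycline summits and all 27 untreated summits had an expectation above 2 times background. At the other 7 doxycycline stretches 0 summits had. Beside the group at Dusp5, Smc3 and Rbm20, these included stretches whose strongest peak lay in or nearest to Hmga2 (11.7-fold), Ptch1 (17.7-fold), Ercc6l2 (13.2-fold), Igf1r (9.50-fold) and Smad6 (12.8-fold). The 6 summits of the stretch at Igf1r are the same 6 that were counted at Synm above. The group at Dusp5 had the lowest strongest fold of these 7, at 8.04, and a median fold of 6.94, inside their range of 5.80 to 8.91. It was also the only one of the 7 with untreated summits between its first and last doxycycline summit. There were 2 of them, against 0 in each of the others. Its own span set the limit of 168 kb, so it was the widest of the 7, and the others spanned 74.1 to 156 kb. The 2 untreated summits had 4 and 5 fragments, and the lowest pileup of the untreated list is 4.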
